A study of Gallus gallus with 26 samples.

Results

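The regions described here carried an H3K27ac peak in both the joint interzone and the adjacent phalange of the chick digit but overlapped no H3K4me1 peak. The 6 H3K27ac peak lists were merged wherever the gap between peaks was under 1 kb, which gave 51381 regions. Of these, 27994 were shared, with a peak in at least 1 interzone list and at least 1 phalange list. The 1616 members were selected on sharing no base with any peak of the 4 H3K4me1 lists, and they made up 5.77% of the shared regions. The remaining 26378 shared regions overlapped H3K4me1 and served for comparison.

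The tissues came from White Leghorn embryos incubated for 7.5 days, at Hamburger-Hamilton stage 32 (HH32), and were dissected from hindlimb digit 3. The interzone is the band of dense mesenchyme that prefigures the joint, and the phalange sample is the cartilage element beside it, named transient cartilage in some labels. H3K27ac was profiled in 3 interzone and 3 phalange libraries, and H3K4me1 in 2 libraries of each tissue, each library from a pool of 100 specimens and each with an input library. The labels name no mutation and no treatment, so interzone against phalange was the comparison, and every library averages over the cells and the embryos of its pool. RNA-seq was also performed on 3 libraries of each tissue, but it was not used here, and the tissue labels were not checked against marker genes.

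H3K27ac is deposited by the acetyltransferases p300 and CBP and marks active enhancers and active promoters. H3K4me1, written mainly by KMT2C and KMT2D, is spread over enhancers, active or poised, and over the flanks of promoters, while the centre of an active promoter typically carries H3K4me3 and little H3K4me1. H3K27ac without H3K4me1 is therefore often met at promoters, although H3K4me3 was not measured here and the members were not assigned to genes.

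Members were small and were found in few libraries. Their median width was 1116.5 bp, with quartiles at 534.5 and 2067 bp, against a median of 2810.5 bp for the other shared regions. The narrowest member spanned 176 bp and the widest 31137 bp. Together they covered 2.79 Mb, compared with 133.0 Mb for the other shared regions. Of the members, 470 (29.1%) had a peak in only 2 of the 6 H3K27ac lists, 1 from each tissue, whereas 330 (20.4%) had a peak in all 6. Among the other shared regions these shares were 4.90% and 64.9%. The presence of H3K27ac and the absence of H3K4me1 both chose the members, so these counts describe the set and were not tested.

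The share of shared regions that lacked H3K4me1 fell with the number of lists. It was 26.7% of the 1762 regions found in 2 lists, 18.4% of 2041 in 3 lists, 7.18% of 3540 in 4, 5.85% of 3196 in 5 and 1.89% of 17455 in all 6. It also fell with width, from 31.7% of the 1156 regions of up to 500 bp to 1.23% of the 7315 regions over 5 kb. A wider region has more bases that an H3K4me1 peak can meet, so width and the rule are not independent. Width also rose with the number of lists, from a median of 593.5 bp for members in 2 lists to 2572 bp in all 6. The fall with lists did not hold for the narrowest regions. Of those up to 500 bp, 26 in all 6 lists lacked H3K4me1 and 31 did not. Over all regions of that width it was 367 and 789. In each wider class the share in all 6 lists was below that of the whole class. The 330 members found in every list were broader than the rest, with a median width of 2572 bp, yet narrower than the 17125 other shared regions found in every list, at 4069 bp.

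**Figure D1:**
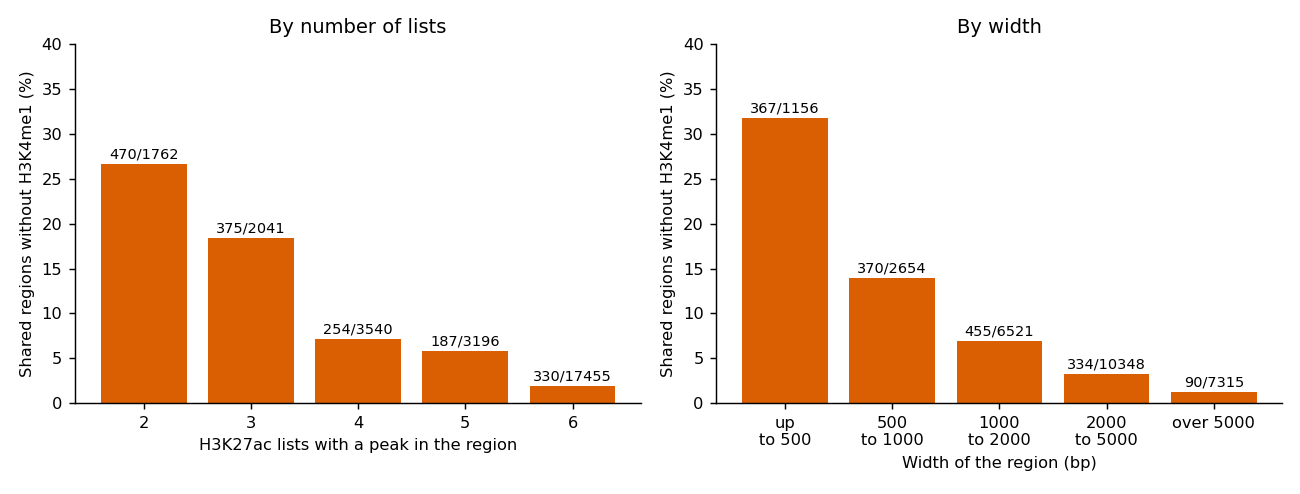
Bars give the percentage of shared H3K27ac regions that overlap no H3K4me1 peak, by the number of H3K27ac lists with a peak in the region (left) and by region width in bp (right), with members over shared regions above each bar. The percentage falls from 26.7% in 2 lists to 1.89% in all 6.

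The libraries contributed unequally to the members. In interzone, replicate 1 had a peak in 1097 of the 1616 members, replicate 2 in 1181 and replicate 3 in 712. In phalange, the counts were 1123, 1251 and 632 for replicates 1, 2 and 3. Replicate 3 was thus the lowest library of both tissues, and the tissues overlapped. The mean was 997 ± 250 members in interzone (SD, n = 3) and 1002 ± 327 in phalange (SD, n = 3). The lists of replicate 3 were also the shortest, with 53697 peaks in interzone and 52591 in phalange, against 58090 to 63642 in the other 4 H3K27ac libraries. The part of list length in the member counts was not tested. Of the other shared regions, replicate 3 held a peak in 87.9% in interzone and in 84.1% in phalange, against 85.8% to 90.7% in the other 4 libraries. As log2 ratio of the member share to the share among other shared regions, interzone libraries stood at -0.39, -0.31 and -0.997 and phalange libraries at -0.30, -0.18 and -1.10.

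By tissue, members with a peak in 1 interzone and 2 phalange libraries numbered 221 of 971 such shared regions (22.8%), and those with 2 interzone and 1 phalange libraries 154 of 1070 (14.4%). The order was the other way in number for 2 interzone and 3 phalange libraries, with 68 of 1133 (6.002%), against 119 of 2063 (5.77%) for 3 and 2. Members with 1 interzone and 3 phalange libraries were 50 of 951 (5.26%), and those with 3 and 1 were 50 of 1745 (2.87%). Peaks in members covered 1020, 1036 and 653 kb in interzone replicates 1 to 3, and 1144, 1182 and 585 kb in the phalange replicates. Replicate 3 was again the lowest of both tissues, and the tissues overlapped here too.

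Fold enrichment over input, the value that the authors' peak caller gave each broad peak, was not part of the rule. It was read as a fold rank, the percentile of a member's peak of highest fold within its library's own list. The median fold rank over members was 38.2, 38.7 and 43.6 in interzone replicates 1, 2 and 3, and 48.6, 46.9 and 42.6 in phalange replicates 1, 2 and 3. A phalange library was the highest and an interzone library the lowest, but interzone replicate 3 lay above phalange replicate 3. Means were 40.2 ± 3.00 in interzone and 46.0 ± 3.11 in phalange (SD, n = 3 each). The difference of -5.83 percentile points, interzone minus phalange, was larger than the SD of either tissue, but the libraries of the tissues overlapped and the difference did not pass the test (two-sided exact permutation test, p = 0.2, where 3 against 3 libraries cannot go below 0.1). Without phalange replicate 2 the difference was -0.85 points.

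In every H3K27ac library the members ranked below the other shared regions. The median fold rank of the latter lay between 72.0 and 73.9, against 38.2 to 48.6 for members, a mean difference of -29.9 ± 4.27 points (SD over 6 libraries), lower in 6 of 6 libraries (two-sided exact paired permutation test over libraries, p = 0.03125, the smallest that 6 pairs can give). The 6 libraries share the same members, so this p covers the spread between libraries only. Among regions with a peak in all 6 lists the mean difference was -13.7 points, again lower in 6 of 6. Width moved with this difference. Taking each region's median rank over its libraries, members of up to 500 bp stood at 34.8 and other shared regions of that width at 30.4, whereas members were lower in each wider class, with 27.98 against 32.5 at 500 to 1000 bp, 30.9 against 45.4 at 1 to 2 kb, 44.97 against 69.4 at 2 to 5 kb and 69.3 against 86.8 over 5 kb. Among regions in all 6 lists, members were lower in 4 of 5 width classes, such as 68.8 for 26 members against 75.2 for 31 others of up to 500 bp, and higher at 1 to 2 kb, with 68.6 for 73 members and 64.2 for 2405 others. In absolute terms the median highest fold in a member was 2.52 to 2.57 in interzone libraries and 2.63 to 2.94 in phalange libraries.

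**Figure D2:**
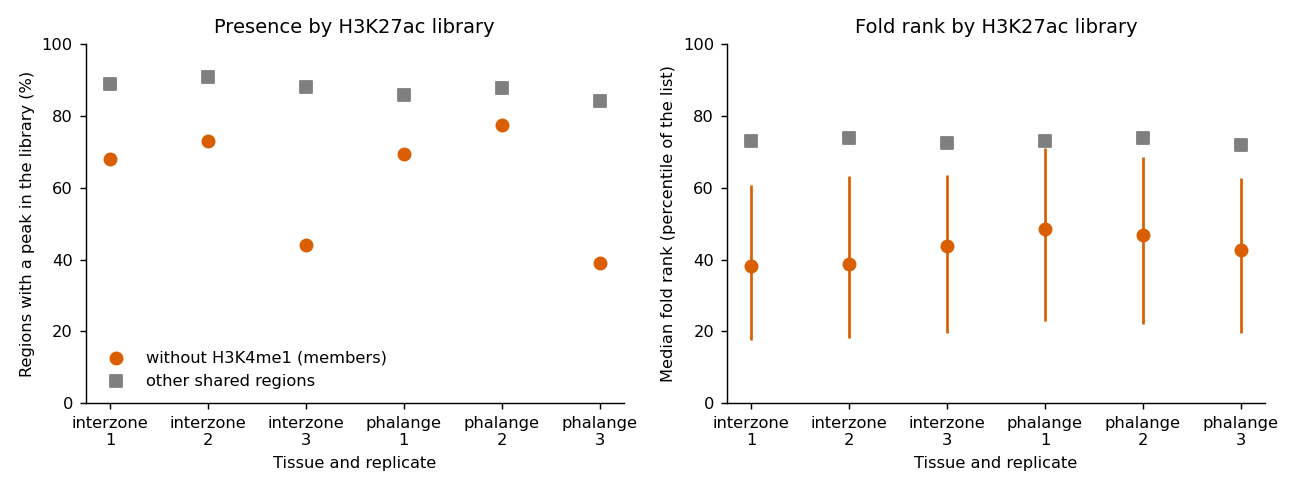
Left, percentage of members (circles) and of other shared regions (squares) with a peak in each H3K27ac library. Right, median fold rank of the same sets in each library as a percentile of its peak list, with vertical lines for the quartiles of the members. Replicate 3 is lowest in presence in both tissues (44.1% and 39.1% of members), and the members' median rank lies below that of other shared regions in all 6 libraries.

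Peak strength differed widely among members. The median rank over a member's libraries exceeded 75 for 133 members (8.23%) and 90 for 10 members, against 39.8% and 19.5% of other shared regions. All 10 of those above 90 had a peak in every list. Members found in 2 lists had a median rank of 24.7, and those in all 6 lists 68.1. The best q value of a member over its libraries was above 0.05 for 8 members, all of them among the 470 in 2 lists, and at most 0.001 for 727 (44.99%), including 312 of the 330 in every list. The 816 members (50.5%) in 3 to 5 lists lay between those in 2 lists and those in all 6. Their median ranks were 28.1, 34.6 and 41.1 in 3, 4 and 5 lists. Rank thus rose step by step with the number of lists.

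The members of highest rank in every list were chosen by their lowest fold rank over the 6 libraries. The first, chr31:2267964-2274603 (GRCg6a), was 6640 bp wide and lay 6056 bp from the nearest H3K4me1 peak. Its fold enrichment was 8.57, 8.95 and 9.66 in interzone replicates 1, 2 and 3 and 9.83, 11.1 and 9.50 in the phalange replicates, and no library ranked it under 96.6. The tissues overlapped, with phalange replicate 2 the highest.

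The second, chr14:16027506-16029411, was 1906 bp wide and 13.3 kb from H3K4me1. It had a fold of 9.06, 8.76 and 9.39 in interzone and 8.86, 7.40 and 8.80 in phalange, and all its ranks were 95.2 or above. The third lay on an unplaced sequence, and the fourth and the fifth on chromosome 32. The member chr32:622650-628862, 6213 bp wide, ranged in fold from 6.17 to 7.22 over the 6 libraries. The member chr32:712647-713264 was only 618 bp wide and ranged from 5.08 to 7.85. On chromosome 16, which in chicken carries the major histocompatibility complex, chr16:2178466-2188015 had a fold of 5.65, 7.82 and 6.13 in interzone and 11.3, 9.66 and 5.99 in phalange, with the nearest H3K4me1 peak 50.8 kb away. The other 5 of these 10 members lay on unplaced sequences, and their lowest ranks were between 85.5 and 88.5.

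The widest member, chrZ:31226778-31257914, spanned 31.1 kb and had a peak in 5 of 6 lists. Its highest fold was 3.47, 3.11 and 3.05 in interzone and 5.03 and 3.69 in phalange replicates 1 and 2. It had no peak in phalange replicate 3, and an H3K4me1 peak lay 4250 bp away. On chromosome 16, chr16:1829137-1843615 spanned 14.5 kb but had a peak in only 3 libraries, with a fold of 1.64 and 1.32 in interzone replicates 1 and 3 and 2.70 in phalange replicate 1. These were among the lowest folds of their lists in interzone, at the 0.04 and 0.00 percentile. On chromosome 31, chr31:2295836-2309431 spanned 13.6 kb and had folds between 2.93 and 3.44 in 5 libraries. The other 2 of the 5 widest members were on unplaced sequences. One of these was also among the 10 members of highest rank, with ranks of 85.5 or above. Over all members, the median rank was 34.8 up to 500 bp, 27.98 at 500 to 1000 bp and 69.3 over 5 kb.

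The tissues were also compared member by member, among the 330 members with a peak in every list. Every interzone rank lay above every phalange rank in 7 members (2.12%), against 17.8% of all 17455 regions found in every list. Every phalange rank lay above every interzone rank in 15 members (4.55%), against 13.5% of all such regions. Both counts of members were below the background, and the difference of shares was not tested. In a two-sided exact permutation test, full separation of 3 against 3 libraries reaches only p = 0.1. No single member can therefore show a difference between the tissues, and the members named below are described only. Within these 330 members the median rank was 68.9, 69.2 and 61.3 in interzone replicates 1, 2 and 3 and 76.5, 76.0 and 56.4 in the phalange replicates, with replicate 3 the lowest in both.

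On the interzone side, the largest gap was at chr11:11371658-11373837, 2180 bp wide and 2653 bp from H3K4me1. Its fold was 2.67, 2.83 and 2.78 in interzone and 2.29, 2.18 and 2.08 in phalange. The corresponding ranks were 49.7, 59.1 and 55.5 against 1.56, 1.73 and 1.84, so that a small difference in fold moved the member from the bottom to the middle of the lists. The next, chr1:78013695-78016253, had a fold of 2.58, 3.43 and 2.54 in interzone and 2.55, 2.44 and 2.33 in phalange, where the groups were separated by ranks but overlapped in fold. In chr31:2857212-2860679 the fold was 3.52, 4.58 and 3.57 in interzone and 3.24, 3.06 and 2.70 in phalange. In chr3:27320456-27322960 the fold ranged from 2.73 to 2.82 in interzone and from 2.42 to 2.74 in phalange, and the fifth of these members lay on an unplaced sequence.

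On the phalange side, the largest gap was at chr3:50252280-50258325, 6046 bp wide and 2704 bp from H3K4me1. Its fold was 3.65, 3.51 and 3.65 in phalange and 2.52, 2.54 and 2.25 in interzone, and the lowest phalange rank was 32.9 points above the highest interzone rank. The 293 bp member chr6:525663-525955 had a fold of 3.96, 2.51 and 3.72 in phalange and 2.22, 2.09 and 2.11 in interzone. The member chr10:17348349-17354112 had 2.82, 3.12 and 2.79 against 2.34, 2.34 and 2.23. The member chr1:179921133-179924228 had 3.36, 2.92 and 2.76 against 2.45, 2.31 and 2.39. Again the fifth lay on an unplaced sequence. In the other 4 the lowest phalange fold was above the highest interzone fold, and in none did a library exceed a fold of 4. These members were picked for their gap, which is given as a description.

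**Figure D3:**
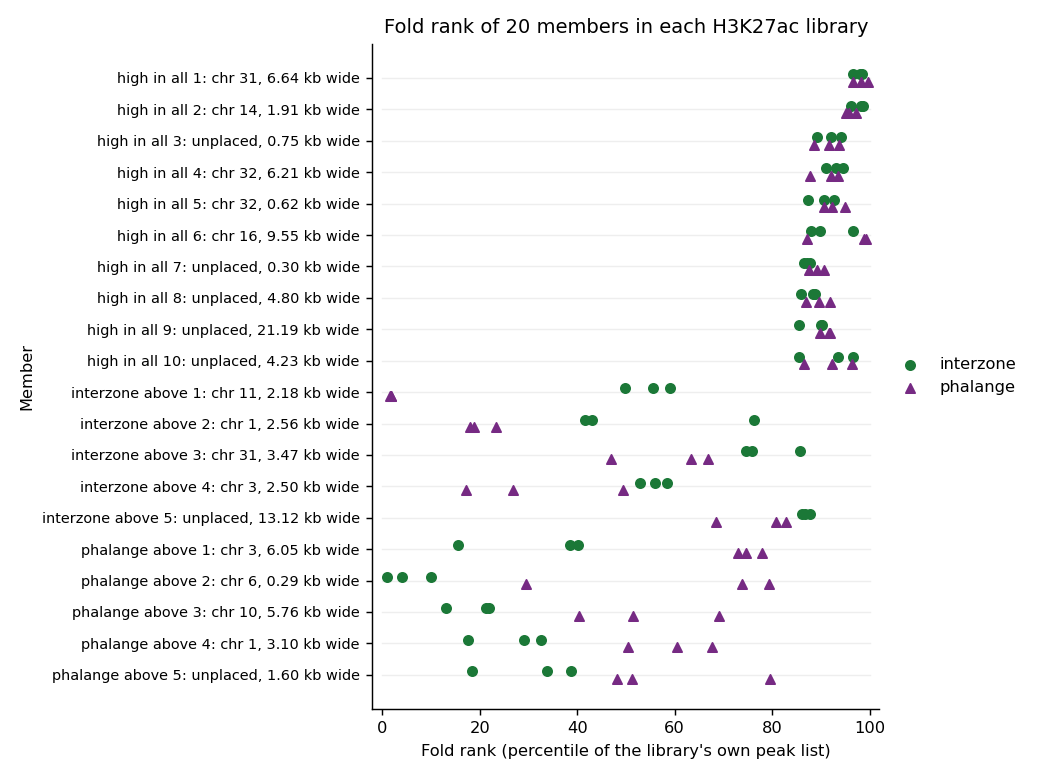
Fold rank, as a percentile of each library's own list, of 20 members in 3 interzone libraries (circles) and 3 phalange libraries (triangles). The upper 10 rows are the members highest in every list, none under 85.5, and the lower 10 are members in which the ranks of the tissues do not overlap, such as the chromosome 11 member with 49.7 to 59.1 in interzone and 1.56 to 1.84 in phalange.

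Members were concentrated on the smallest chromosomes. The chicken genome consists of a few large macrochromosomes and many small, GC-rich and gene-dense microchromosomes. Microchromosomes, here chromosomes 11 and above, held 723 members (44.7%) and 26.1% of the other shared regions. Chromosomes 1 to 5 held 514 members (31.8%) and 51.7% of the others. The share of shared regions that lacked H3K4me1 was 9.51% on microchromosomes, 3.63% on chromosomes 1 to 5, 3.27% on chromosomes 6 to 10 and 4.19% on Z. Among regions in all 6 lists it was 3.49% on microchromosomes (171 of 4905) and 0.556% on chromosomes 1 to 5 (48 of 8636), and on chromosomes 6 to 10 it was 0.794% (23 of 2897). The higher share on microchromosomes was thus also seen among the regions in every list. Of these 171 members, 86 lay on chromosomes 16, 30, 31, 32 and 33.

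Within microchromosomes the share was uneven. Chromosome 31 had 73 members among 130 shared regions (56.2%), chromosome 32 had 17 of 40 (42.5%), chromosome 30 had 43 of 117 (36.8%), chromosome 16 had 35 of 97 (36.1%) and chromosome 33 had 53 of 184 (28.8%). These 5 chromosomes held 221 members, or 13.7% of the set and 1.32% of the other shared regions. They held 86 of the 330 members found in every list (26.1%). Chromosomes 25, 27 and 22 followed with 21.0%, 17.9% and 15.4%. On chromosome 21 the share was 4.01% and on chromosome 12 it was 3.38%, no higher than the 4.78% of chromosome 1, where 206 of 4309 shared regions were members.

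H3K4me1 peaks were scarce on some of these chromosomes. Merged in the same way, the 4 H3K4me1 lists gave 0.533 regions per H3K27ac region on chromosome 31 and 0.718 on chromosome 16, compared with 1.78 on chromosome 1. On chromosome 31 the interzone H3K4me1 libraries had 84 and 93 peaks and the phalange libraries 77 and 91, while the H3K27ac libraries had 156 to 292. On chromosomes 32 and 33, in contrast, the ratios were 1.31 and 1.38. How well reads can be placed on these chromosomes was not measured, and its part in the H3K27ac peaks or in the missing H3K4me1 was not tested.

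W and the unplaced sequences stood apart further. Chromosome W, present in females only, had 23 members among 48 shared regions (47.9%), 11 of them in all 6 lists. Its H3K27ac lists held 43 to 63 peaks. Its H3K4me1 lists held 18 and 17 in interzone replicates 1 and 2, and 45 and 21 in phalange replicates 1 and 2. On unplaced sequences, which the assembly assigns to no chromosome position, 148 of 217 shared regions (68.2%) were members, and 47 of these lay on 41 sequences without any H3K4me1 peak. H3K27ac lists held 357 to 536 peaks on unplaced sequences, and H3K4me1 lists 155 to 166. Together W and the unplaced sequences held 79 of the 330 members found in every list (23.9%). On numbered chromosomes, Z and W, 1468 members remained.

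**Figure D4:**
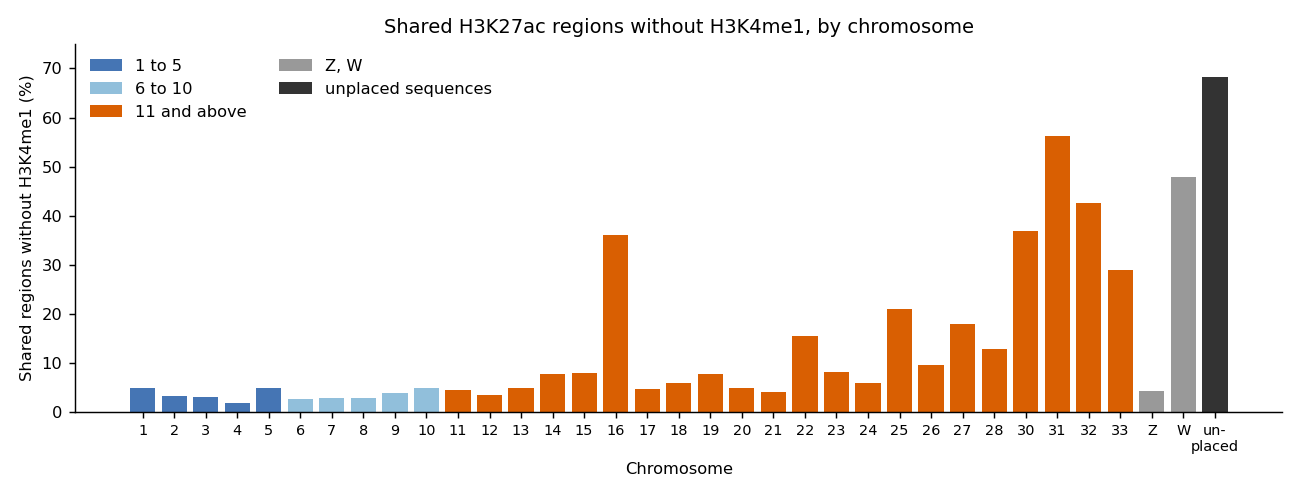
Percentage of shared H3K27ac regions that overlap no H3K4me1 peak on each chromosome and on the unplaced sequences, coloured by chromosome class. Chromosome 31 (56.2%), W (47.9%) and the unplaced sequences (68.2%) are the highest, and chromosomes 1 to 10 are all at or below 4.87%.

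Distances from members to H3K4me1 are given without a baseline from other positions in the genome. The H3K4me1 lists held 100251 to 111076 peaks each. The median distance to the nearest H3K4me1 peak of any list was 4060.5 bp, with quartiles at 2054 and 11474 bp. Of the 1616 members, 142 (8.79%) lay within 1 kb, 253 between 1 and 2 kb, 518 between 2 and 5 kb, 263 between 5 and 10 kb, 272 between 10 and 50 kb and 121 beyond 50 kb. H3K4me1 flanked 321 members (19.9%) within 5 kb on both sides and 592 (36.6%) on one side, and within 10 kb these were 693 (42.9%) and 483 (29.9%). Measured to a single library, the median distance was 5176 and 5063 bp in the interzone H3K4me1 libraries and 5086 and 4927.5 bp in the phalange libraries. The absence of H3K4me1 was in the rule, so the size of the distances is only described. Between the tissues the single-library medians overlapped. Their difference of 112.75 bp, interzone minus phalange, did not pass the test (two-sided exact permutation test, p = 0.67). With 2 against 2 libraries that test cannot go below 0.33.

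Members farther from H3K4me1 were found in more H3K27ac lists. The share with a peak in all 6 lists was 4.23% within 1 kb, 11.1% between 1 and 2 kb, 10.6% between 2 and 5 kb, 21.3% between 5 and 10 kb, 37.9% between 10 and 50 kb and 47.9% beyond 50 kb. It was 51.1% where the sequence had no H3K4me1 peak. The median fold rank moved with it, from 29.6 within 1 kb to 56.0 beyond 50 kb and 72.0 without H3K4me1 on the sequence. W and the unplaced sequences made up 0.704% of the members within 1 kb and 38.0% of those beyond 50 kb. With W and the unplaced sequences left out, 4.26% of 141 members within 1 kb were in all 6 lists. Between 10 and 50 kb it was 37.1% of 224, and beyond 50 kb 36 of 75, so the order remained. Chromosomes 16, 30, 31, 32 and 33 stayed in, and they held 86 of the 330 members found in every list. On chromosome 31 the median distance of members was 20561 bp. The part of these chromosomes in the order was not tested.

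**Figure D5:**
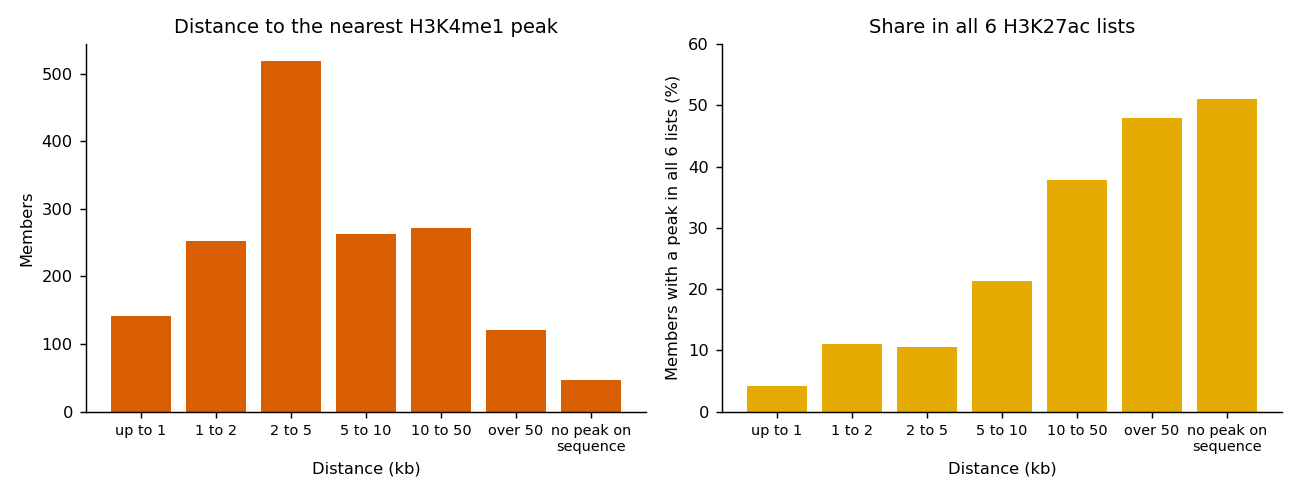
Number of members by distance in kb to the nearest H3K4me1 peak of any list (left), and percentage of the members in each distance class with a peak in all 6 H3K27ac lists (right). The largest class is 2 to 5 kb with 518 members, and the percentage in all lists is 4.23% within 1 kb and 47.9% beyond 50 kb.

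Around the border of the rule, members near H3K4me1 and the few other shared regions with least H3K4me1 were alike in width and rank. The 142 members within 1 kb of H3K4me1 had a median width of 712.5 bp and a median rank of 29.6. The 34 other shared regions with under 100 bases of H3K4me1 had a median width of 634.5 bp and a median rank of 26.1. The 428 other shared regions that a peak of only 1 H3K4me1 list met were less like these members. They had a median width of 1182.5 bp and a median rank of 35.9. Of them, 13.6% were in all 6 H3K27ac lists, against 4.23% of the members within 1 kb. Regions met by all 4 H3K4me1 lists made up 92.7% of the other shared regions and had a median rank of 69.2.

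The members farthest from H3K4me1 on named chromosomes, among those in every list, were on W and near the start of chromosome 27. The first, chrW:165604-167366, was 1672 kb from the nearest H3K4me1 peak and had a fold of 5.25, 4.03 and 4.74 in interzone and 5.42, 3.38 and 4.67 in phalange. On chromosome 27, chr27:282008-289582 and chr27:305646-308960 lay 1596 and 1577 kb away. The latter had a fold of 6.90, 7.42 and 4.33 in interzone, and of 7.56 and 4.85 in phalange replicates 2 and 3, with phalange replicate 1 the highest and replicate 3 the lowest of both tissues. The remaining members, chrW:814809-818136 and chrW:1391178-1392448, were 1021 and 447 kb away, with folds between 2.78 and 5.65.

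Some members lay near each other between H3K4me1 peaks. The median distance from a member to the nearest shared region of any kind, member or not, was 2699.5 bp. For the other shared regions it was 4533.5 bp. These distances do not separate members near each other from members near other shared regions. Between consecutive H3K4me1 peaks, 1014 members (62.7%) stood alone, while 28 stretches held 5 or more members each, 193 in all (11.9%). By the rule, every shared region within a stretch free of H3K4me1 is a member, so these counts also follow where H3K4me1 is missing. They are given without a baseline. The minimum of 5 was chosen after the values were seen. In these stretches 99 of 193 members (51.3%) had a peak in all 6 lists, against 10.7% of the members that stood alone. Among all members this share was 45.9% on unplaced sequences, 47.8% on W, 23.7% on microchromosomes and 9.34% on chromosomes 1 to 5. Stretches on unplaced sequences held up to 11 members. The part of sequence class in the contrast was not tested.

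The fullest stretch, chr31:2585147-2764829, held 16 members over 180 kb, out of 21 H3K27ac regions between the same H3K4me1 peaks. H3K4me1 lay at 9926 bp on one side and 5303 bp on the other. In interzone replicates 1, 2 and 3 peaks were present in 14, 15 and 11 of the 16 members. In the phalange replicates they were present in 14, 16 and 10, and 7 members had all 6. Widths ran from 268 to 10131 bp. The strongest by median rank stood at 78.9. Other stretches on the same chromosome were chr31:1870879-2121613 and chr31:2129341-2196229 with 7 members each and chr31:2852823-2883537 with 6, of which 5 were in every list.

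A second stretch, chrZ:64390692-64441125, had 11 members spaced over 50.4 kb, 8 of them in all 6 lists. None was wider than 1836 bp. Peaks were present in 8, 9 and 11 of them in interzone replicates 1, 2 and 3 and in all 11 in each phalange library. Here replicate 3 was not the lowest, and the nearest H3K4me1 peaks lay 19.96 and 51.2 kb from the ends. In its member chrZ:64435452-64436679 the ranks were 46.9, 42.6 and 65.1 in interzone and 79.2, 81.9 and 62.6 in phalange. In chrZ:64439982-64441125 they were 69.9, 76.0 and 65.5 against 76.1, 81.2 and 75.5, where the tissues also overlapped. These 2 members were picked after their values were seen.

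Such stretches on large chromosomes were few. On chromosome 2, chr2:130576869-130649719 held 7 members, 3 of them in every list, and chr2:149586324-149650705 held 6, 4 of them in every list. On chromosome 1, chr1:770890-831707 and chr1:846726-927795 held 6 each, separated by H3K4me1 peaks. On chromosome 33, chr33:6177072-6233263 held 9 members and chr33:6079169-6129894 held 7, and on chromosome 16 chr16:506546-563648 held 7. The stretch chr14:16024076-16046091, which contains the chromosome 14 member of highest rank, held 5 members in 22.02 kb, 4 of them in all 6 lists.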

How the data were processed

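Peak lists of 6 H3K27ac and 4 H3K4me1 ChIP-seq libraries were analysed. The authors trimmed reads with Trimmomatic, mapped them with Bowtie2 to the *Gallus gallus* 6.0 genome (GRCg6a), removed duplicates with Picard and called broad peaks against input with MACS2, 1 list per library, with a stated threshold of 0.05. The deposited fold is the enrichment ratio over input, and the deposited −log10 q value starts between 1.00 and 1.01 in each list, so peaks above that threshold are included. Read depth is unknown, and list lengths are given in its place. The member counts were not corrected for depth. For their clustering of peaks the authors also took out regions of anomalous enrichment. Whether the peak lists used here still hold such regions is not known, and no filter for them was applied.

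Members and lists of regions were chosen with earlier results of these data known. Merging and overlaps (at least 1 base) were computed in Python 3.11.15 with pandas 2.3.3, and the same 1616 members were counted with bedtools 2.31.1. Fold rank is the percentile of a region's peak of highest fold in its library's list. Tissues were compared over libraries by two-sided exact permutation tests. Each sample was a pool per the labels, so p-values measure the spread between pools. Alternatives were other gaps, q thresholds, library minimums, H3K4me1 rules, sequences and left-out libraries. The code was tested on simulated data.

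Named regions were the 10 members in all 6 lists with the highest minimum rank, the 5 widest, the 5 in all 6 lists farthest from H3K4me1 on named chromosomes, and up to 5 in each direction in which the ranks of the tissues did not overlap. Coordinates of members on unplaced sequences are not printed. Genes at members and sequences were not analysed here, since the reference at hand was of another build. Every column of values used belonged to 1 labelled sample.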

Additional observations from a re-analysis of the deposited data

How the results depend on the processing

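The number of members depended on how regions were defined. It was 4106 when only overlapping or touching peaks were merged, 1003 with gaps under 2 kb, 795 with only peaks of q at most 0.001 and 671 with a peak required in at least 2 libraries of each tissue, and 1329 to 1733 with 1 library left out. Merging only touching peaks splits regions, and the other 3 settings leave fewer. The difference in median fold rank between the tissues kept its sign under every alternative run. It lay between -9.09 and -0.85 with 1 library left out and the members chosen anew. The members' rank below other shared regions kept its sign as well, between -31.2 and -27.9 points with 1 library left out. With 5 H3K27ac libraries the smallest possible p is 0.0625, and without replicate 3 of both tissues the difference was -31.1 points at the smallest possible p of 0.125 (exact paired permutation test, n = 4). That alternative, the restriction to sequences with H3K4me1 or to all 6 lists, and all alternatives of this last result were chosen after seeing the data.

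Differences between the tissues in presence, covered length and distance lay within or near the spread between libraries. With 1 library left out they ranged from -230 to 177 members, from -0.33 to 0.19 in the log2 share ratio, from -280 to 78.6 kb and from -77.5 to 191 bp. Each time the members were chosen anew, and without an H3K27ac library its tissue had fewer lists in which to meet the rule. The difference in members was positive without each interzone H3K27ac library (94.8 to 177) and negative without each phalange H3K27ac library (-230 to -45). The ranges in presence are thus partly set by the rule. The difference in distance, 112.75 bp, was -0.5 with gaps under 2 kb, -62.75 with q at most 0.05, 723 with q at most 0.001 and -123 with 2 libraries of each tissue. The cause was not tested.

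Whether same-numbered libraries of the tissues were paired was not known. They had low correlations of 0.029, 0.016 and 0.043 in presence, yet each correlated best with its own number. Replicate 3 also had the fewest members with a peak in both tissues, 712 in interzone and 632 in phalange. With the replicate block the differences between the tissues are the same by construction, since both tissues have equally many libraries. They are -5.33 members, -0.037 in the log2 share ratio, -5.83 rank points, -67.5 kb and 112.75 bp. Only the p-value can change, and for the rank points it was 0.5 (exact paired permutation test, n = 3). Analyses of genes at members were not run.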
